A study of Mus musculus with 12 samples.

Results

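The genes described here are 36 marker genes of astrocytes, the star-shaped glial cells of the brain, out of 54532 genes in the deposited tables. They were chosen by name as markers of the cell type, with earlier results of these data known. Total RNA of the hippocampus had been sequenced from 12 libraries of 3-month-old mice, with 3 female and 3 male libraries of control mice and as many of Atrx-cKO mice. The cKO mice carry a conditional knockout of Atrx, which encodes a chromatin remodelling protein, and the series title names neurons as the deleted cells, so the markers below belong to cells other than those. The Cre driver, the deleted exons, the strain and the alleles of control mice are not given in the sources used here. Pairs of mice, 3 per sex, are mentioned in the design text, which would make each library 1 mouse, but no label says so per library or ties libraries into pairs. A p-value of the gene tests (limma) sets a difference between groups of libraries against how far libraries differ within their groups. That spread was estimated from all 12 libraries, those outside a comparison included.

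Astrocytes take up glutamate and potassium released by neurons, return glutamine to them, store glycogen, line blood vessels with endfeet rich in water channels, and are joined to each other by gap junctions. They also secrete lipoproteins and matrix proteins that act on synapses, and they raise the intermediate filament GFAP when tissue is damaged. In the hippocampus their fine processes wrap the synapses of pyramidal and granule neurons. Several of their markers are not private to them: Apoe and Cst3 are also made by microglia, Glul and S100b by some oligodendrocytes, and Sparcl1 and Clu by other brain cells. In bulk tissue, fewer astrocytes and less RNA per astrocyte cannot be told apart.

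Mapped sequence ran from 1.16 to 8.64 Gb per library. Genes for olfactory and vomeronasal receptors, which the hippocampus is not known to use, served as a measure of background: their median coverage per base, on the FPKM scale (fragments mapped, relative to transcript length and library size), was 0.0863 to 0.602 in control females, 0.305, 1.97 and 2.25 in cKO females 1 to 3, 0.00664 to 0.0276 in control males and 0.0178 to 0.286 in cKO males. Background was thus higher in every control female than in any control male, and cKO females 2 and 3 stood apart from all other libraries. Values below are corrected FPKM, in which bases on a gene were divided by the length of its exons, the background of the library was subtracted and libraries were scaled to each other, unless deposited FPKM is named. Atrx itself was lower in all 3 cKO libraries of each sex, with a log2 difference in deposited FPKM of -0.76 in females and -0.33 in males (exact two-sided permutation p = 0.1 in each sex, the smallest possible with 3 against 3, and 0.005 over both). Defining markers of astrocytes were present in every library, with Gfap at 46.5 to 105, Aqp4 at 25.8 to 43.8 and Aldh1l1 at 4.49 to 8.97 corrected FPKM, as were those of neurons (Snap25, 184 to 241) and oligodendrocytes (Mbp, 30.9 to 79.2). The microglial marker Cx3cr1 and the choroid plexus marker Folr1 were each at 0 in 1 library.

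All 36 members were found under 1 gene identifier each, and 35 passed the filter on low values (a mean of at least 1, and at least 1 in 3 libraries). Hes5, a target gene of Notch signalling, did not pass; its deposited FPKM was 1.31, 0.541 and 0.830 among control females, 0.721, 0.441 and 1.38 among cKO females, 1.68, 0.968 and 1.87 among control males and 1.39, 1.34 and 1.31 among cKO males, near the background of cKO females 2 and 3. Levels, compared here per base of exon, spread widely. In control females the most abundant members were Sparcl1, a secreted matrix protein, at 589 ± 7.32 (mean ± SD, n = 3), Apoe, the main lipid carrier of the brain, at 323 ± 25.7, Glul, which encodes glutamine synthetase, at 238 ± 10.6, and Slc1a2, the main glutamate transporter of the forebrain, at 202 ± 22.7. Sparcl1 exceeded Apoe by more than their spread, whereas Glul and Slc1a2 overlapped, with Slc1a2 at 228, 185 and 192 and Glul at 226, 246 and 243 in the single libraries. At the low end were the transcription factor Sox9 at 2.16 ± 0.318 and Cbs, which encodes cystathionine beta-synthase, at 1.28 ± 0.237. In cKO female 2 or 3, coverage of 8 members (Slc7a10, Gja1, Aldh1l1, Cbs, F3, Fgfr3, Sox9 and Hes5) was under 3 times the background, so their values in those libraries rest on a difference between similar numbers.

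**Figure D1:**
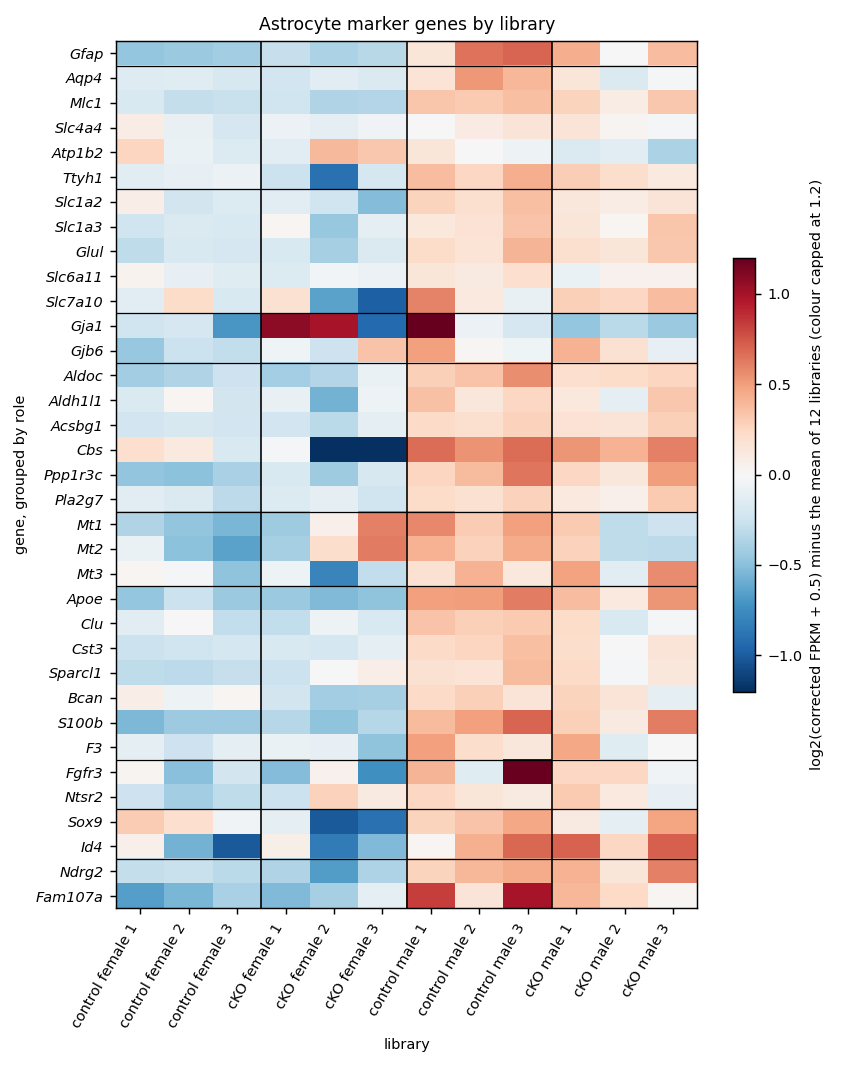
Each cell gives the log2(corrected FPKM + 0.5) of 1 of the 35 tested members in 1 of the 12 libraries, minus that gene's mean over the libraries; red is above the mean, blue below, and black lines separate roles and groups. The 6 male libraries are mostly red and the 6 female ones mostly blue, with departures in 1 or several libraries for Gja1, Cbs, Fgfr3, Id4 and the metallothioneins Mt1 and Mt2.

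The first comparison asked whether loss of Atrx, placed in neurons by the title, was accompanied by a change of astrocyte genes. No member passed the threshold of an adjusted p under 0.05 (limma, adjusted over all 15094 genes tested) in females, in males, in the mean of the sexes or in the difference between them. The background shares of genes past it were 0.0729% in females, 0.00663% in males, 0.0331% in the mean and 0% in the difference, so few genes of any kind passed. At an unadjusted p under 0.05 there were 6 members in females, against 29.4% of all genes, 3 in males, against 2.32%, 5 in the mean, against 20.4%, and 3 in the difference, against 6.24%. These tests took the spread from all 4 groups, cKO females 2 and 3 included. Fitted with only the groups compared, 1 of 34 members in females and 5 of 36 in males had such a p. Over all genes it was 1925 of 14560 in females and 785 of 13591 in males, and still no member passed the threshold. Over the 35 tested members the median log2 difference was -0.0020 in females (all genes 0.016) and -0.14 in males (all genes 0.031), with 16 members above 0 and 19 below in females (47.9% of all genes below), and 5 above and 30 below in males (41.9% of all genes below). Most other marker lists given below also leaned below 0 in males. The shares were 77.8% of further astrocyte genes and 72.2% of neuronal, 78.6% of microglial and 75% of endothelial and mural markers. They were 100% of tested oligodendrocyte precursor and of choroid plexus and ependymal markers, but 28.6% of oligodendrocyte markers and 50% of reactive astrocyte genes. In females, 4 members were higher in all 3 cKO than in any control library (Gfap, Gjb6, Cst3 and Sparcl1) and 4 lower (Ttyh1, Bcan, Sox9 and Ndrg2) (10.2% and 7.49% of all genes). In males, 9 members were lower in all 3 cKO libraries (Aqp4, Atp1b2, Slc1a2, Slc6a11, Gja1, Aldoc, Mt2, Clu and Cst3), against 4.66% of all genes, and none was higher, against 7.43%. In deposited FPKM, Ttyh1 and Bcan of the 8 in females and Aqp4, Atp1b2 and Gja1 of the 9 in males were also free of overlap, and the others were not. Set against the mean of the control males, 26, 33 and 23 of the 35 members were below it in cKO males 1, 2 and 3 (42.9%, 44.9% and 47.6% of all genes), with medians of -0.093, -0.23 and -0.11. Against the mean of the control females, 14, 18 and 18 were below it in cKO females 1, 2 and 3 (45%, 45.1% and 48.4% of all genes). Without cKO male 2 the median of the members in males was -0.067, and 1 member had an unadjusted p under 0.05. The lowest of the males, cKO male 2, was also the cKO male with the least sequence (3.66 Gb) and the highest background (0.286); the part of either in the result was not tested.

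**Figure D2:**
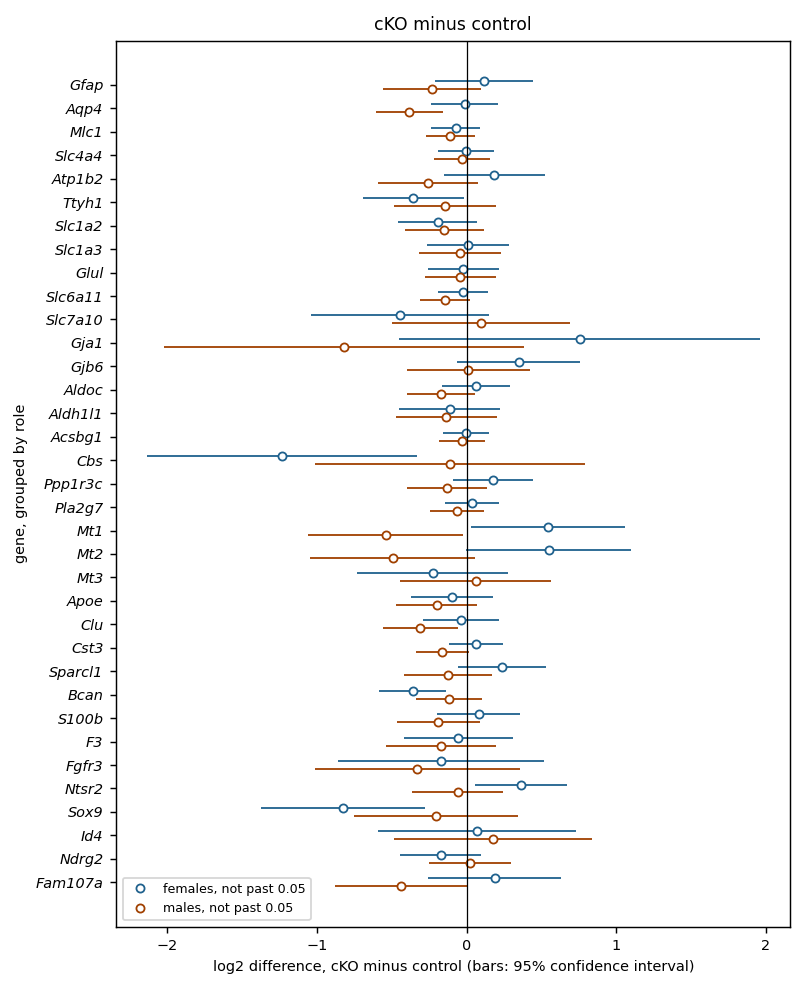
For each tested member, points give the log2 difference between cKO and control libraries in females (blue) and in males (brown), and bars the 95% confidence interval from limma; open points have not passed an adjusted p of 0.05. Every point is open, most male points lie a little to the left of 0, with a median of -0.14, and the widest intervals are those of Gja1, Cbs, Fgfr3 and Id4.

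The number of members that passed in females changed with the libraries and the scaling. Without cKO female 1, which left the 2 high-background libraries in that group, 7 members passed: Cbs, Sox9, Slc7a10 and Bcan were lower and Mt1, Mt2 and Ntsr2 higher, and 5771 genes of 14917 passed in all. Without cKO females 2 and 3 no member passed, and the median of the members was 0.0062, in a fit with a single cKO female assumed to vary like the other groups. With array weights, which count divergent libraries less, 2 members passed, Cbs and Sox9, both lower, and 3509 genes of 15094 passed in all. In deposited FPKM, where background is left in, 4 members passed in females, all lower in cKO (Slc1a2, Acsbg1, Apoe and Bcan). Of 43399 genes, 10452 passed in all, 606 of them lower. The median of all genes was shifted by 0.88 and that of the members by -0.29.

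The second comparison set control males against control females. All 35 tested members were higher in the control males, against 43.2% of all genes, with a median log2 difference of 0.49, against -0.067 for all genes. Past an adjusted p of 0.05 (limma) were 17 members, all higher in males, against 6.54% of all genes called in that direction. That share was larger among abundant genes, as given below by level. The 17 members were Gfap (1.92-fold), S100b (2.00-fold), Fam107a (2.28-fold), Apoe (1.90-fold), Mt1 (1.90-fold), Ppp1r3c, Aldoc, Ndrg2, Mlc1, Sparcl1, Aqp4, Cst3, Glul, Ntsr2, Acsbg1, Clu and Pla2g7, the last 12 between 1.35 and 1.83-fold. The libraries of the 2 groups did not overlap for 29 of the 35, against 21% of all genes non-overlapping in this direction, and for each of the 17 they did not overlap in deposited FPKM either. With each of the 12 libraries left out in turn, 11 to 21 members passed, and 11 of the 17 (Acsbg1, Aldoc, Apoe, Cst3, Fam107a, Gfap, Mlc1, Ndrg2, Pla2g7, Ppp1r3c and S100b) passed every time. Control males and control females also differed in background, without overlap, so that sex and whatever else separated the female from the male libraries cannot be told apart. As deposited, FPKM gave 7 calls, all among the 17, and scaling summed FPKM over all genes gave none, with the median of the members at 1.16 and that of all genes at -0.32.

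The same sex comparison in the 6 cKO libraries, which share no library with the control comparison, was added after the control values had been seen. Both comparisons took their estimate of spread from all 12 libraries. Background again separated the sexes without overlap, at 0.305 to 2.25 in cKO females and 0.0178 to 0.286 in cKO males. Sex and whatever else separated these libraries cannot be told apart here either. The cKO comparison placed 31 of 35 members higher in males (48% of all genes), with a median of 0.43 (all genes -0.027). By limma, 21 members were called higher and 1, Atp1b2, lower, against 16.6% and 21.8% of all genes. Cbs, Sox9 and Slc7a10 were among those called higher, and their coverage in cKO females 2 and 3 was under 3 times the background. Of the 4 members with a mean under 5 corrected FPKM, 3 were called higher here and 0 between control sexes. Mt1, Mt2, Gja1 and Atp1b2 were the 4 members below 0. Without cKO females 2 and 3, which left a single cKO female assumed to vary like the other groups, none was called and the median was 0.34.

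**Figure D3:**
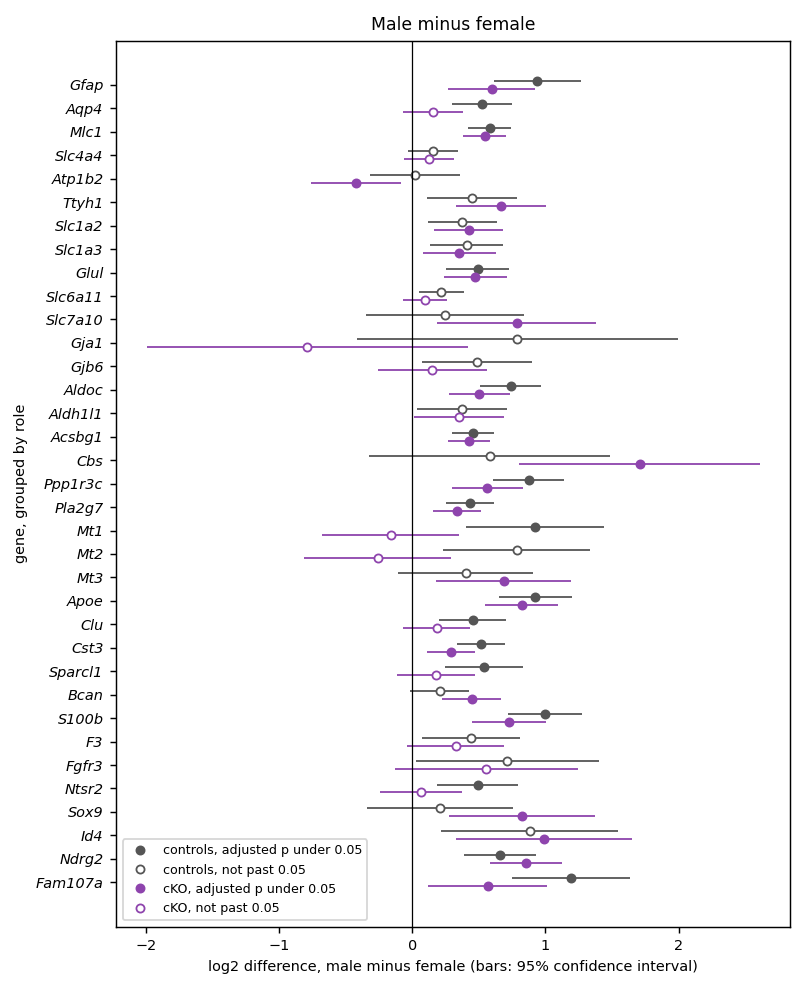
For each tested member, points give the log2 difference between males and females among control libraries (grey) and among cKO libraries (purple), with 95% confidence intervals; filled points passed an adjusted p of 0.05. Every grey point lies to the right of 0 and 31 of the 35 purple ones do, while Mt1, Mt2, Gja1 and Atp1b2 have a purple point to the left.

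Gfap encodes the intermediate filament by which astrocytes are most often stained. Its corrected FPKM was 46.5, 47.4 and 48.4 among control females, 53.4, 49.6 and 51.3 among cKO females, 71.5, 101 and 105 among control males and 87.6, 64.8 and 83.3 among cKO males. The female libraries, control and cKO together, lay below every male library, and cKO females lay just above control females, while the males overlapped. The difference between cKO and control was 0.11 (SE 0.15) in females and -0.23 (SE 0.15) in males (log2), with 95% confidence intervals of the fold of 0.86 to 1.36 and 0.68 to 1.07. In deposited FPKM the female groups overlapped, at 84.5, 87.3 and 79.9 in controls and 94.0, 56.7 and 56.5 in cKO. Control males were higher than control females by 0.94 (adjusted p = 0.0047, limma). A single transcript of 9 exons held 94.5% to 97.7% of the summed FPKM of Gfap in every library.

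Among the members for water, ions and cell volume, Aqp4, the water channel of astrocyte endfeet, showed the smallest unadjusted p of any member for cKO against control in males. Aqp4 was at 27.2, 27.3 and 26.4 among control females, 25.8, 27.6 and 26.8 among cKO females, 34.0, 43.8 and 40.1 among control males and 33.5, 26.7 and 29.7 among cKO males. The 3 cKO males lay below the 3 control males in corrected and in deposited FPKM, cKO male 1 only just, and cKO males 2 and 3 were near the level of the females. The log2 difference was -0.38 (SE 0.10) in males (adjusted p = 1, limma) and -0.011 (SE 0.10) in females, and the difference between the sexes did not pass (adjusted p = 0.585, limma). Control males exceeded control females by 0.53 (adjusted p = 0.0102, limma).

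Mlc1, a membrane protein of endfeet that takes part in volume regulation, was at 17.2, 15.9 and 16.1 among control females, 16.4, 15.1 and 15.2 among cKO females, 24.6, 24.4 and 25.2 among control males and 23.5, 20.8 and 24.5 among cKO males. No male library overlapped a female one, and the sex difference was 0.58 in controls and 0.54 in cKO libraries (adjusted p = 0.00261 and 0.00305, limma). Its fold between cKO and control was 0.95 (95% confidence interval 0.85 to 1.06) in females and 0.93 (0.83 to 1.04) in males. Ttyh1, a chloride channel protein, was at 14.9, 15.2 and 15.5 among control females, 13.6, 8.54 and 14.1 among cKO females, 21.3, 19.5 and 22.3 among control males and 20.2, 19.0 and 17.8 among cKO males. All 3 cKO females lay below the control females, cKO female 2 furthest, with a log2 difference of -0.36 that did not pass (adjusted p = 0.155, limma). The bicarbonate cotransporter Slc4a4 (13.2 to 17 over all libraries) and Atp1b2, a beta subunit of the sodium pump (7.0 to 12.2), showed no sex difference past the threshold in controls, at 0.16 and 0.021. Atp1b2 was the member called lower in cKO males than cKO females, at -0.42 (adjusted p = 0.0493, limma), a call kept in 2 of 12 leave-one-out fits. With summed FPKM scaled over all genes the value turned to 0.94.

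None of the 5 members that handle glutamate, glutamine and other transmitters passed between genotypes. Slc1a2, the glutamate transporter GLT-1, was at 228, 185 and 192 among control females, 196, 183 and 151 among cKO females, 259, 246 and 278 among control males and 237, 229 and 239 among cKO males. The cKO males were all a little below the control males and the cKO females overlapped the controls, with differences of -0.15 and -0.19 and 95% confidence intervals of -0.41 to 0.11 and -0.46 to 0.068. Glul, which turns glutamate into glutamine, was at 226, 246 and 243 among control females, 246, 212 and 247 among cKO females, 325, 312 and 371 among control males and 320.2, 308 and 349.7 among cKO males. Every male library exceeded every female one for Glul, by 0.49 in controls (adjusted p = 0.0171, limma), while the fold between genotypes was 0.99 (0.84 to 1.16) in females and 0.97 (0.82 to 1.14) in males. The remaining 3 were Slc1a3, the glutamate transporter GLAST (54.7 to 95.5), the GABA transporter Slc6a11 (9.01 to 11.7) and the amino acid transporter Slc7a10 (1.92 to 6.71). Their sex differences in controls were 0.41, 0.22 and 0.24 and did not pass; among cKO libraries Slc1a3 (0.35) and Slc7a10 (0.78) were called higher in males (adjusted p = 0.045 and 0.0416, limma). Slc7a10 was lowest in cKO females 2 and 3, the libraries in which its coverage was within 3 times the background.

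The 2 gap junction genes passed in no comparison. Gjb6, which encodes connexin 30, was at 8.54, 9.82 and 9.60 among control females, 11.5, 9.93 and 15.1 among cKO females, 16.8, 12.0 and 11.5 among control males and 16.0, 13.5 and 11.0 among cKO males. The cKO females lay above the control females, by 0.35 (adjusted p = 0.229, limma), and in deposited FPKM the groups overlapped. Most of the deposited FPKM of Gjb6, 70.1% to 85.2%, came from a transcript of 201 bases, so the summed FPKM was a median of 4.65 times the value per base of all its exons. Gja1, which encodes connexin 43 and was singled out after its values were seen, was at 5.84, 6.0 and 4.11 among control females, 15.2, 14.3 and 3.42 among cKO females, 20.7, 6.61 and 6.0 among control males and 4.92, 5.49 and 4.98 among cKO males. Control male 1 and cKO females 1 and 2 stood far above the other 9 libraries for Gja1. Its differences of 0.76 in females and -0.82 in males had 95% confidence intervals as wide as -0.45 to 1.96 and -2.02 to 0.38.

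Of the 6 enzymes and their partners, 4 were higher in control males than control females past the threshold. Aldoc, the brain form of the glycolytic enzyme aldolase, was at 60.2, 62.8 and 68.1 among control females, 60.7, 63.2 and 76.6 among cKO females, 98.6, 103 and 119 among control males and 92.7, 94.0 and 96.8 among cKO males. Ppp1r3c, which directs a phosphatase to glycogen, was at 20.2, 19.9 and 21.5 among control females, 24.7, 20.8 and 24.5 among cKO females, 33.7, 36.9 and 44.2 among control males and 33.5, 31.0 and 40.2 among cKO males. For both genes no male library overlapped a female one, and the control sex differences were 0.74 and 0.88 (adjusted p = 0.00329 and 0.00323, limma). Acsbg1, an acyl-CoA synthetase, was at 15.6, 16.0 and 15.7 among control females, 15.7, 14.7 and 17 among cKO females, 21.8, 21.2 and 22.5 among control males and 20.8, 20.6 and 22.7 among cKO males. Pla2g7, a secreted phospholipase that breaks down platelet-activating factor, was at 33.3, 32.5 and 29.4 among control females, 32.7, 33.8 and 31.1 among cKO females, 42.9, 41.8 and 44.5 among control males and 39.8, 38.4 and 45.8 among cKO males. These also separated the sexes completely, by 0.46 and 0.44 in controls (adjusted p = 0.00449 and 0.00915, limma). Between genotypes, Acsbg1 was among the best-bounded members, at a fold of 1.0 (0.90 to 1.11) in females and 0.98 (0.88 to 1.09) in males.

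Cbs, which makes cystathionine from homocysteine, had a corrected FPKM of 1.46, 1.36 and 1.01 among control females, 1.19, 0 and 0 among cKO females, 2.23, 1.99 and 2.22 among control males and 1.98, 1.78 and 2.10 among cKO males. The 2 values of 0 are those of cKO females 2 and 3, where its coverage was below the background, and they alone carry its log2 difference of -1.23 in females (adjusted p = 0.114, limma); cKO female 1 lay within the control females. In deposited FPKM the direction turned, with all 3 cKO females above all 3 control females. Aldh1l1, a folate enzyme widely used to mark astrocytes, ranged from 4.49 to 8.97 and had a sex difference in controls of 0.37 that did not pass (adjusted p = 0.148, limma).

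Metallothioneins are small cysteine-rich proteins that bind zinc and copper, and Mt1 and Mt2 are induced by metals, glucocorticoids and stress, whereas Mt3 is the form typical of brain. The windows from 250 bases before to 50 bases after the start that RefSeq gives are shown (GRCm38.p6, all on the + strand). They were chosen after the values were seen, in which Mt1 and Mt2 tracked each other across libraries and Mt3 did not. Capitals mark matches on either strand to the core of the metal response element, TGCACNC or TGCGCNC.
Mt1, chr8:94178839-94179138: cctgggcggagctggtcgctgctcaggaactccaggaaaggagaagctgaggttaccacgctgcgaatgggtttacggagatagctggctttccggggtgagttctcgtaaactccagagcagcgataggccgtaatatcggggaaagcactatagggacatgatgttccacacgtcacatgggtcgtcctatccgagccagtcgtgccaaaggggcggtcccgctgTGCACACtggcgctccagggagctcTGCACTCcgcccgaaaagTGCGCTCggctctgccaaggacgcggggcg
Mt2, chr8:94172368-94172667: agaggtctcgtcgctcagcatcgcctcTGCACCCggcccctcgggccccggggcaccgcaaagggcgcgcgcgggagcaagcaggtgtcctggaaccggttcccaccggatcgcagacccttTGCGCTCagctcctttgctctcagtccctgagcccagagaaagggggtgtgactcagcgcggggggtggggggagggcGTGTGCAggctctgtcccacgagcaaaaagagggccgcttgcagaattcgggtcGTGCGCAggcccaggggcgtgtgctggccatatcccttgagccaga
Mt3, chr8:94152357-94152656: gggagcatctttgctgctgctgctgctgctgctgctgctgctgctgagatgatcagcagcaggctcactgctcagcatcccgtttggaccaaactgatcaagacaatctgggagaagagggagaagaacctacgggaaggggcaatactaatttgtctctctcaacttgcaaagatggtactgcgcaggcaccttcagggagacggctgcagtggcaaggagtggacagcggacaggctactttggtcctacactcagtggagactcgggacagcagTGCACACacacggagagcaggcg
The Mt2 window held 4 such matches, Mt1 held 3 and Mt3 held 1, with no match overlapping another. At least 1 match was found in 25.7% of 32851 promoter windows of the same length and at least 4 in 0.295%. Of the members, 31 had a window, and 11 of these (35.5%, against 28.2% of all genes) held a match: besides the metallothioneins these were Aldh1l1, Fam107a, Fgfr3, Glul, Ppp1r3c, Slc4a4, Slc6a11 and Slc7a10. A match is a description of the letters and not evidence of binding. Whether these sites had a part in the levels of the metallothioneins was not tested.

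Mt1 was at 51.5, 47.5 and 45.1 among control females, 49.3, 69.2 and 101 among cKO females, 99.4, 82.2 and 93.5 among control males and 82.5, 53.6 and 55.7 among cKO males. Mt2 was at 65.4, 49.1 and 44.2 among control females, 52.3, 80.0 and 107 among cKO females, 92.6, 84.0 and 94.2 among control males and 83.9, 56.0 and 55.6 among cKO males. In both genes cKO females 2 and 3 were the highest female libraries in corrected FPKM, and cKO males 2 and 3 the lowest male ones. Deposited FPKM of the main transcript, at least 97.4% of Mt1 and 99.39% of Mt2, kept the male order and not the female one. For Mt1 it was 129.7, 120.2 and 101.6 among control females and 118.5, 105.1 and 147.3 among cKO females. For Mt2 it was 85.57, 65.19 and 52.55 among control females and 66.14, 63.39 and 81.18 among cKO females. The ratio of Mt2 to Mt1 stayed between 0.932 and 1.27 in all 12 libraries. The log2 difference between cKO and control for Mt1 was 0.54 (SE 0.23) in females and -0.54 (SE 0.23) in males, and 0.55 and -0.49 for Mt2. The male effect minus the female effect was -1.09 (SE 0.33) for Mt1 (adjusted p = 0.585, limma), so the opposite signs did not pass as a difference. Without cKO females 2 and 3 the female value of Mt1 was 0.041. Among controls, Mt1 was higher in males by 0.92 (adjusted p = 0.0294, limma) and Mt2 by 0.78 (0.069, limma). Mt3 was at 14.1, 13.6 and 9.72 among control females, 13.2, 7.73 and 11.1 among cKO females, 15.7, 18.6 and 15.1 among control males and 19.4, 12.5 and 20.7 among cKO males, overlapping between genotypes in both sexes. Its ratio to Mt1 ranged from 0.110 in cKO female 3 to 0.371 in cKO male 3.

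Secreted and surface proteins included the most abundant members. Apoe was at 306, 353 and 311 among control females, 311, 293 and 302 among cKO females, 595, 599.8 and 646 among control males and 545, 457 and 609 among cKO males. Sparcl1 was at 588, 582 and 596 among control females, 604, 722 and 764 among cKO females, 822, 809 and 941 among control males and 850.4, 717 and 794 among cKO males. Cst3, which encodes the protease inhibitor cystatin C, was at 137, 138 and 141 among control females, 144, 141 and 150.5 among cKO females, 191, 195 and 209.5 among control males and 189, 163 and 181 among cKO males. For Apoe and Cst3 no male library overlapped a female one; for Sparcl1 cKO females 2 and 3 reached the lower males. Control sex differences were 0.93, 0.54 and 0.52 (adjusted p = 0.00293, 0.0273 and 0.0047, limma). Between genotypes, Apoe had a fold of 0.94 (95% confidence interval 0.77 to 1.13) in females and 0.87 (0.72 to 1.05) in males.

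S100b, a calcium-binding protein, was at 44.8, 48.2 and 48.3 among control females, 51.4, 46.7 and 51.7 among cKO females, 85.6, 92.4 and 107 among control males and 79.8, 70.8 and 101 among cKO males. Clu, which encodes the chaperone clusterin, was at 96.0, 105 and 85.2 among control females, 85.6, 101 and 92.1 among cKO females, 133, 128 and 130.2 among control males and 122, 92.3 and 104 among cKO males. S100b had the smallest adjusted p of the control sex comparison among members together with Mlc1 (0.00261, limma, for a difference of 1.0), with every male above every female library. Clu was lower in all 3 cKO than in all 3 control males, by -0.31 (SE 0.11) (adjusted p = 1, limma), but overlapped in deposited FPKM. Its sex difference was 0.45 in controls (adjusted p = 0.0289, limma) and 0.18 among cKO libraries (adjusted p = 0.217, limma).

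Bcan encodes brevican, a proteoglycan of the matrix around synapses that oligodendrocyte precursors make as well. It was at 15.1, 13.7 and 14.5 among control females, 12.2, 10.6 and 10.7 among cKO females, 16.8, 17.5 and 15.9 among control males and 17.3, 15.9 and 13.2 among cKO males. All 3 cKO females lay below all 3 control females, also in deposited FPKM (22.9, 16.0 and 14.2 against 27.5, 25.8 and 24.4). Bcan had the smallest unadjusted p of the members for cKO against control in females, at -0.36 (SE 0.10) (adjusted p = 0.114, limma), and in the mean of the sexes, at -0.24 (SE 0.071) (adjusted p = 0.222, limma). Without cKO females 2 and 3 the female difference was -0.23. In males it was -0.12, with a 95% confidence interval of -0.34 to 0.10. F3, the clotting initiator tissue factor, ranged from 7.02 to 14.3 and passed in no comparison.

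Of the receptors, Ntsr2, a neurotensin receptor of astrocytes, was at 7.39, 6.52 and 7.10 among control females, 7.36, 10.8 and 9.58 among cKO females, 10.6, 9.88 and 9.62 among control males and 11.1, 9.67 and 8.24 among cKO males. The control males lay above the control females, by 0.49 (adjusted p = 0.0446, limma), and cKO females 2 and 3 reached the male level; the call held in 4 of 12 leave-one-out fits. Fgfr3, a fibroblast growth factor receptor, ranged from 2.10 to 9.39, with control male 3 at 9.39 and no other library above 5.24, and passed in no comparison.

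Among transcription regulators, Sox9, which sets the glial fate, was at 2.44, 2.24 and 1.81 among control females, 1.70, 0.682 and 0.784 among cKO females, 2.37, 2.52 and 2.79 among control males and 2.07, 1.70 and 2.81 among cKO males. The cKO females were below the control females, cKO females 2 and 3 most, where coverage of Sox9 was 1.23 and 1.22 times the background. The female difference was -0.82 (SE 0.25) (adjusted p = 0.114, limma), the groups overlapped in deposited FPKM, and without background subtraction the difference was 0.11. Id4, an inhibitor of helix-loop-helix factors, was at 16.4, 10.4 and 7.59 among control females, 16.5, 8.56 and 10.7 among cKO females, 16.0, 21.3 and 25.7 among control males and 26.0, 18.8 and 26.1 among cKO males. It overlapped between genotypes in each sex, and it was higher in males by 0.88 in controls (adjusted p = 0.0861, limma) and 0.99 in cKO libraries (0.0268, limma).

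Ndrg2, a cytoplasmic protein long used as an astrocyte marker, was at 83.1, 84.4 and 81.1 among control females, 79.2, 63.8 and 78.5 among cKO females, 122, 134 and 138 among control males and 136, 113 and 155 among cKO males. Fam107a, an actin-associated protein, was at 30.7, 33.3 and 37.3 among control females, 33.8, 37.0 and 45.5 among cKO females, 87.4, 54.6 and 97.9 among control males and 64.9, 58.0 and 49.7 among cKO males. Every male library exceeded every female one for both. Fam107a had the highest fold of the members called between control sexes, 2.28 (95% confidence interval 1.68 to 3.11, adjusted p = 0.00616, limma), and Ndrg2 had 1.58 (1.31 to 1.91, adjusted p = 0.00873, limma). The transcript that held most of the FPKM of Fam107a in 9 of the libraries held between 1.24% and 69.6% of it, so its summed FPKM mixed transcripts in unequal parts.

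Abundant genes as a whole leaned towards the control males, so the members were set beside genes of like level. The median log2 difference of all genes between control males and control females was -0.14 below a mean of 5 corrected FPKM, 0.0071 from 5 to 20, 0.044 from 20 to 50, 0.29 from 50 to 100, and 0.55 at 100 or more. The members' medians in these classes were 0.41, 0.45, 0.53, 0.92 and 0.52. In the 4 lower classes, with 4, 14, 3 and 7 members, every member lay above the class median, whereas 2 of the 7 most abundant members did. Between cKO males and cKO females, 4 of 4, 12 of 14, 3 of 3, 5 of 7 and 3 of 7 members lay above the class median, from low to high. Called higher in control males were 1.13%, 10%, 21.1%, 35.3% and 27.3% of all genes in these classes, from low to high. Of the members, 0 of 4, 3 of 14, 3 of 3, 5 of 7 and 6 of 7 were called higher. The nearest match in background between a male and a female library was cKO male 2 (0.286) and cKO female 1 (0.305). In this pair 29 of 35 members were higher in the male (48.9% of all genes), with a median of 0.23 against -0.0077 for all genes. Against control female 1 (0.180), of the other genotype, cKO male 2 had 26 of 35 members higher (52.4% of all genes). The median there was 0.22 against 0.021 for all genes. Both pairs are single libraries, with no test.

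**Figure D4:**
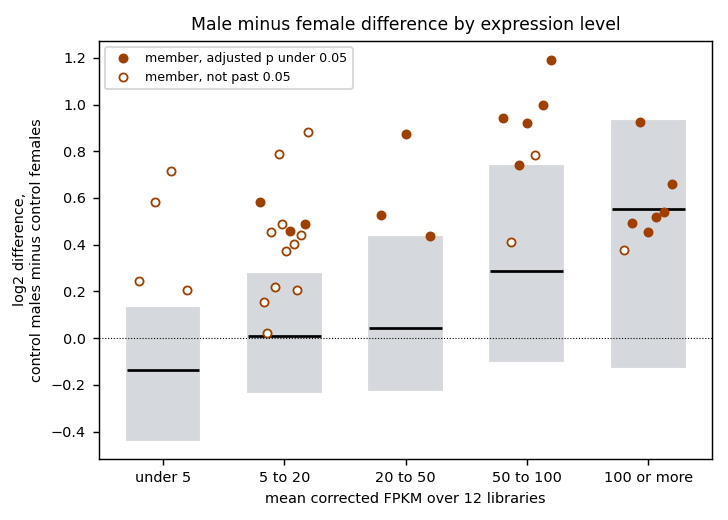
Points are the 35 tested members placed by their mean corrected FPKM over the 12 libraries (classes on the horizontal axis) and their log2 difference between control males and control females (vertical axis), filled where the adjusted p is under 0.05; grey boxes give the middle 50% of all genes of the class and black lines their median. Members lie above the black line in every class but that of 100 or more, where 2 of 7 do.

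Other gene lists gave the setting of these values. Between control sexes, 987 of all 15094 genes tested were called higher in males and 778 lower. Of 40 further astrocyte genes, 36 were tested, and none was called for cKO against control in either sex. At an unadjusted p under 0.05 (limma) there were 10 in females and 1 in males, against 29.4% and 2.32% of all genes. Between control sexes 13 of the further astrocyte genes were higher in males and 1 lower, with a median of 0.44. Slc25a18, a mitochondrial carrier (0.98), Dio2, the enzyme that activates thyroid hormone (1.08), and the claudin Cldn10 (0.68) had the smallest p, and the gene called lower was Nfib, a glial transcription factor (-0.36). Of 35 genes linked to reactive astrocytes only 12 passed the filter, none was called for cKO against control (2 in females and 1 in males at an unadjusted p under 0.05, limma), and 2 were higher and 2 lower in control males. Serpina3n, a protease inhibitor much used as a mark of reactive astrocytes, was at 26.7, 37.6 and 31.7 among control females, 30.1, 34.0 and 52.3 among cKO females, 6.57, 8.27 and 22.1 among control males and 36.6, 26.4 and 21.3 among cKO males. Control males 1 and 2 were the lowest libraries, and the log2 difference between cKO and control males, 1.32 (SE 0.39), had an adjusted p of 1 (limma), while control males were below control females by -1.52 (adjusted p = 0.032, limma). S100a10 was higher (0.88) and the prostaglandin enzyme Ptgs2 lower (-0.76) in control males.

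Some markers of other cell types also differed between the control sexes. Over all 15094 genes tested, 987 were called higher and 778 lower in control males. Of all genes, 43.2% lay above 0 and 26.5% had an unadjusted p under 0.05 (limma). Of 14 oligodendrocyte markers, 3 were higher in control males and none lower (Mbp 1.0, Mobp 1.23, Ermn 0.87), with a median of 0.31. Of 14 microglial markers, all 14 lay above 0 and 2 were called higher, Aif1 (0.79) being one of them, with a median of 0.41. None of 7 tested oligodendrocyte precursor markers was called, also at an unadjusted p under 0.05 (limma), and their median was 0.27. Of 18 neuronal markers, 6 were lower and none higher, with a median of -0.38, including Eno2 (-0.62), Nefm (-0.62) and Syt1 (-0.67). Endothelial and mural markers had a median of -0.078, with none of 12 called and 1 at an unadjusted p under 0.05 (limma). The summed level of these vessel markers overlapped between the sexes. That of the astrocyte members did not, at 2239 to 2532 corrected FPKM in the 6 female libraries and 2851 to 3786 in the 6 male ones. Neuronal markers, at 1009 to 1140 in females and 836 to 907 in males, did not overlap either. The same held for microglial markers, at 107 to 134 in females and 151 to 184 in males. Oligodendrocyte markers, at 372 to 545 in females and 574 to 1045 in males, were likewise apart. Whether tissue make-up took part in the sex difference of the members was not tested.

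Choroid plexus, a tissue that borders the hippocampus, was present to very unequal degrees, with Ttr, its transport protein for thyroid hormone, at 13.8, 5087 and 8.54 among control females, 22.2, 29.5 and 38.2 among cKO females, 3613, 1550 and 1233 among control males and 2300, 39.3 and 42.0 among cKO males. Control female 2, the 3 control males and cKO male 1 were the 5 libraries with high Ttr. The part of this tissue in the values of the members was not tested. For cKO against control, no marker of neurons, oligodendrocytes, their precursors, microglia, endothelium or choroid plexus was called in either sex (at most 4 of a list at an unadjusted p under 0.05, limma). Of all genes, 29.4% in females and 2.32% in males had an unadjusted p under 0.05 (limma).

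**Figure D5:**
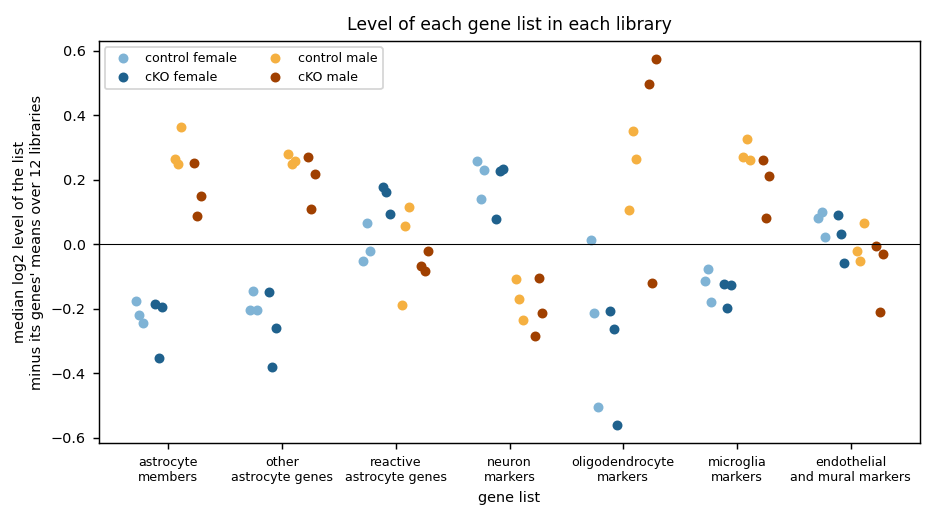
Each point is 1 library and gives the median, over the tested genes of a list, of log2(corrected FPKM + 0.5) minus the gene's mean over 12 libraries, with the 4 groups in colour. The astrocyte members and the other astrocyte genes place all 6 male libraries above all 6 female ones, as the microglial markers do, and the neuronal markers place them below.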

How the data were processed

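Libraries of hippocampal total RNA, depleted of ribosomal RNA, were aligned to GRCm38.p6, and HISAT2 2.0.4 and StringTie are the tools named, per the submitters' processing notes. Per the file headers, the authors deposited for each library the FPKM and the coverage (mean reads per base, a signal) of 137862 transcripts; no read counts are held. The use of strand, trimming and the annotation release are not given in the sources used here, so overlapping genes and close copies are uncertain.

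Transcript FPKM was summed per gene as deposited FPKM. For corrected FPKM, bases on a gene (coverage times length) were divided by the union of its GENCODE M21 exons, which matched 54495 of 54532 genes. The median over 1459 protein-coding receptor genes was subtracted per library, values below 0 were set to 0, and libraries were scaled by median-of-ratios over the protein-coding genes whose mean reached 5. A gene was tested if its mean reached 1 and 3 libraries or more held at least 1. limma 3.58.1 (trend, robust; R 4.3.3) fitted 4 group means to log2(corrected FPKM + 0.5) over all 12 libraries, a scale that understates folds of low genes; tests were two-sided and adjusted by Benjamini-Hochberg over all 15094 genes, and the code was tested on simulated data. Depth was read from how FPKM relates to coverage in each library. With no counts, no counting interval was computed, and precision rests on the spread of 3 libraries per group.

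The members and lists were chosen with earlier results of these data known. Every member is reported. Values in each library are given for members past the threshold in any of the 5 contrasts of the design and, per role, for the highest in controls and for the smallest p in the mean of the sexes; of each other list at most 3 genes are named. One of the 2 genes called in the microglial list is not reported here. The choice of Gja1, Nfib and Ttr, and of the metallothionein promoter windows, followed a look at the values. Promoter windows are RefSeq's on GRCm38.p6. Alternatives were other scalings, pseudocounts and filters, array weights, a replicate block, only the groups compared, and libraries left out.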

Additional observations from a re-analysis of the deposited data

How the results depend on the processing

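Each of 6 contrasts was refitted under up to 24 settings. Of 4004 member values recomputed, 198 changed sign, 173 lost and 73 gained a call, and 4 changed sign with a call in either fit. These 4 are males minus females among cKO libraries: with summed FPKM scaled over all genes Atp1b2 became 0.94, Mt1 1.42 and Mt2 1.32, and without background subtraction Sox9 became -0.17. The causes were not tested.

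Members called were 0 in females, males, the mean and the difference, except for 4 in females as deposited, and 2, 2 and 1 with array weights in females, the mean and the difference. With 1 library left out they ran from 0 to 7 in females, 0 to 3 in the mean and 0 to 6 in the difference, the highest each time without cKO female 1. Between control sexes the 17 calls became 0 with summed FPKM scaled over all genes, 7 as deposited, 8 with quantile normalization and 26 with array weights, and 11 to 21 with 1 library left out. Among cKO libraries the 22 became 35, 14 with quantile normalization, 0 without cKO females 2 and 3, and 10 to 21 with 1 library left out.

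Over all genes, calls in females (11) were 5 without background subtraction, 0 with summed FPKM scaled over all genes, 10452 as deposited, 35 with quantile normalization, 30 with no filter, 7 at a mean of at least 5, 3509 with array weights, 0 with only the groups compared, and 1 to 5771 with 1 library left out. In the same order, males (1) had 3, 0, 0 and 0, then 2 at a mean of at least 5, 16, 5 and 1 to 2. The mean (5) had 10 without subtraction, 0 with summed FPKM scaled over all genes, 3461 with array weights, 10 without cKO females 2 and 3, and 3 to 4434 with 1 left out; the difference (0, with 942 genes at an unadjusted p under 0.05) had 1734 with array weights and 0 to 2908. Between control sexes (1765) there were 106 with summed FPKM scaled over all genes, 341 as deposited, 719 with no filter, 5041 with array weights, 3346 without cKO females 2 and 3, 3387 with only the groups compared, and 532 to 2776. Among cKO libraries (5807) there were 12569 without subtraction, 26893, 31670 as deposited, 10745 with no filter, 2652 at a mean of at least 5, 77 without cKO females 2 and 3, and 1950 to 8149.

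Same-numbered control and cKO libraries did not deviate together (correlations of 0.153, -0.303 and 0.378 in females and 0.0402, -0.0968 and 0.198 in males), so the replicate numbers were not taken as pairs. With a replicate block, 0 genes and 0 members were called in females, in males and in the mean. Coverage near the background limits Cbs, Sox9, Slc7a10, Hes5, Fgfr3 and Aldh1l1 in cKO females 2 and 3, and Gja1 and F3 in cKO female 3, and 3 libraries per group limit the rest.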
